A study of Mus musculus with 26 samples.

Results

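Transcription factors of the macrophage lineage were followed by RNA sequencing in sorted bone marrow monocytes, small peritoneal macrophages (SPMs) and MHCII negative lung macrophages of WT and ACKR2-/- mice. The 9 genes were chosen by name and found by their Ensembl identifiers in the count tables of all 3 cell types, out of 50104 identifiers that these tables share. They are Spi1, Cebpa, Cebpb, Irf8, Irf4, Maf, Bhlhe40, Pparg and Gata6. ACKR2 is an atypical chemokine receptor that takes up inflammatory chemokines without classical signalling, and the study compared cells of mice with and without it.

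All mice were naïve females, 8 to 10 weeks old unless stated otherwise in the study's reporting summary. WT C57BL/6J mice were bought, while ACKR2-/- mice came from a colony bred in house, so they were not littermates and genotype cannot be told apart from origin. There were 4 samples per genotype of monocytes and SPMs, each sorted from 5 mice, and 5 samples per genotype of lung macrophages, whose number of mice per sample was not found in the labels or methods. Monocytes were sorted as CD11b+ Ly6C+ F4/80- cells, SPMs as CD11b+ MHCII+ cells with intermediate F4/80, and lung macrophages as CD11b+ F4/80+ cells lacking MHCII, Ly6C and Siglec-F. Lungs were digested with enzymes, whereas bone marrow was flushed out and SPMs were collected by lavage. Each cell type came from its own tissue, cell preparation, sort and count table, so a difference between cell types cannot be told apart from a difference between these. In bulk samples, fewer cells of a type and less RNA per cell cannot be told apart either.

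Reads counted on genes numbered 12781144 to 35400034 per sample, and in every group the 8 members other than Gata6 were counted by at least 11 reads in each sample. Levels are given as RPKM, which is reads per kb of exon and per unit of library depth after scaling of all 26 libraries together, and so can be compared between genes as well as samples. The monocyte marker Ly6c2 was at 2455 to 5091 CPM in monocytes. The 7 genes of the monocyte list, with Ly6c2, nevertheless summed to 21620 to 56770 CPM in monocytes and 113200 to 217700 CPM in SPMs. Monocyte samples also held 9859 to 71350 CPM of neutrophil markers and 8101 to 25120 CPM of myeloid progenitor markers. MHC class II genes summed to 157200 to 246600 CPM in SPMs. In lung macrophages these summed to 3119 to 7734 CPM, except in WT replicate 3 at 72110 CPM, which went against its label. That sample also had 2049 CPM of C1qa, a complement gene of interstitial macrophages, against 46.8 to 290 CPM in the other lung samples and 1326 to 3758 CPM in SPMs. All 9 interstitial macrophage markers summed to 9043 CPM in that sample and 260.7 to 1440 CPM in the other lung samples, against 16400 to 30800 CPM in SPMs. The lung cells are therefore named here by their sort and not by these markers. The library labelled WT replicate 5 and ACKR2-/- replicate 4 of the lung held less epithelial RNA than the others, with 390.2 and 239 CPM over 8 genes against 4474 to 15940 CPM. Ackr2 itself had 5 to 9 reads in each WT SPM sample and 0 in ACKR2-/- SPMs, but at most 2 reads in monocytes. In the lung, it had 7 to 50 reads in ACKR2-/- samples and 0 to 469 in WT. The library labelled WT replicate 5 had 0, fewer than any ACKR2-/- lung sample, so the target went against its label. Without the libraries labelled lung WT replicates 3 and 5, 6 of the 9 members were called in WT against monocytes, 6 against SPMs and 0 by genotype, the same counts as with them. Over all genes, 11483 of 18287 were then called against monocytes, 11287 against SPMs and 0 of 17940 by genotype. The members called against monocytes were not all the same, as Irf4 was no longer called and Irf8 was, lower in the lung.

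PU.1, the product of Spi1, is an ETS factor that opens chromatin at myeloid genes and is needed for the whole lineage. C/EBPα and C/EBPβ bind with it during the passage from progenitor to monocyte and macrophage, while IRF8 and IRF4 are partners of PU.1 that are known for monocytes and dendritic cells. MAF restrains proliferation of macrophages, BHLHE40 favours it in peritoneal macrophages, PPARγ is known for alveolar macrophages and GATA6 for large peritoneal macrophages.

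The start regions of Irf8 and Irf4 are shown because these closely related genes had opposite levels in monocytes and SPMs. Each window holds 250 bases before and 50 after the RefSeq start on the plus strand of GRCm38.p6, at chr8:120736108-120736407 for Irf8 and chr13:30748983-30749282 for Irf4, from the listed start nearest to that of the gene annotation, and capitals mark matches to the motifs below.
Irf8: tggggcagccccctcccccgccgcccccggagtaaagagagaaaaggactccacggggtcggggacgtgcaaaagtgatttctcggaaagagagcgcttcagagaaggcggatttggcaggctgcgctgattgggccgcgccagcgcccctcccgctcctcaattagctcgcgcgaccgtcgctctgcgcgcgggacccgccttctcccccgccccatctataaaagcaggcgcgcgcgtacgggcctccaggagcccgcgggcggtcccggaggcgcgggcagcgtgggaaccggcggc
Irf4: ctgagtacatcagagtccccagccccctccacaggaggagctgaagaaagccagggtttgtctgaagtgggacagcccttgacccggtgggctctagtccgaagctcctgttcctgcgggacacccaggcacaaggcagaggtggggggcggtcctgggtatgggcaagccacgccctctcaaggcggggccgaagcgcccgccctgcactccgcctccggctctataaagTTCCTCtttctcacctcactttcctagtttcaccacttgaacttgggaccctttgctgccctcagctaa
Windows were found for 5 of the 9 members, namely Cebpa, Cebpb, Irf4, Irf8 and Pparg. Then 7 short motifs were searched on both strands. The PU.1 core GAGGAA was found once, in the Irf4 window, as its reverse complement, and 28.3% of 32851 windows of the same length hold it. The nuclear receptor element AGGTCA was found once, in the Pparg window, and 16.3% of all windows hold it. None of the 5 windows held the C/EBP site TTGCNNAA (10.8% of all windows), the IRF repeat GAAANNGAA (8.56%), the GATA site AGATAA (11.2%), the E-box CACGTG of BHLHE40 (7.15%) or the MAF element TGCTGA (19.5%), which says only that these letters are absent from these stretches. The Irf8 window held 38 CpG pairs and the Irf4 window 11.

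First, the levels of the general myeloid factors were investigated. Spi1 (ENSMUSG00000002111, chr2:91082390-91115756) and Cebpb (ENSMUSG00000056501, chr2:167688915-167690418) were among the 7 highest of 962 tested transcription factor genes in every group, by mean RPKM. Spi1 ranked 3 in WT monocytes and WT SPMs and 7 in WT lung macrophages, while Cebpb ranked 5, 4 and 1. Spi1 was at 205, 236, 214 and 216 RPKM in WT monocytes (replicates 1 to 4), and at 131, 265, 197 and 293 RPKM in WT SPMs. In WT lung macrophages, it was at 276.5, 295, 208, 284 and 423 RPKM. These ranges overlapped throughout, and no WT cell type was separated from another. The log2 difference was 0.02 (95% interval -0.50 to 0.55) for SPMs over monocytes, 0.45 (-0.05 to 0.95) for lung macrophages over monocytes and 0.43 (-0.08 to 0.93) for lung macrophages over SPMs. Adjusted p was 0.996, 0.108 and 0.13 by edgeR. It ranged in ACKR2-/- samples from 141 to 232 RPKM in monocytes, 231 to 341 RPKM in SPMs and 249 to 502 RPKM in lung macrophages. There, Spi1 was higher in SPMs than in monocytes by 0.66 ± 0.26 (log2, SE, adjusted p = 0.042 by edgeR) and higher in lung macrophages than in monocytes by 0.80 ± 0.25 (adjusted p = 0.0064). The former call was lost in 9 of 16 alternatives, among them the omission of ACKR2-/- replicate 1, 2 or 4 of the monocytes or of the SPMs.

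Cebpb was instead highest in the lung. It was at 126.5, 108, 160 and 140 RPKM in WT monocytes and at 116, 285, 108 and 332 RPKM in WT SPMs. In WT lung macrophages, 4 samples were at 1184 to 1930 RPKM, while replicate 3, the sample rich in MHC class II, was at 278 RPKM, within the range of SPMs. Cebpb was thus higher in WT lung macrophages than in monocytes by 3.13 ± 0.46 (log2, SE, adjusted p = 1.9e-06 by edgeR) and than in SPMs by 2.48 ± 0.44 (adjusted p = 3.0e-05). Between WT SPMs and monocytes, its difference of 0.66 (95% interval -0.23 to 1.55) did not pass the test (adjusted p = 0.24). In ACKR2-/- SPMs, at 608, 247, 191 and 414 RPKM, it did pass, with 1.38 ± 0.44 over monocytes (adjusted p = 0.013). This call was lost without ACKR2-/- replicate 1 of the SPMs, and the difference fell to 0.64 (log2, adjusted p = 0.37) without replicates 1 and 4.

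Cebpa (ENSMUSG00000034957, chr7:35119293-35121928), the factor that directs progenitors to the myeloid path, was far lower than Cebpb in every group. It was at 4.54, 4.35, 4.28 and 3.78 RPKM in WT monocytes, and at 4.27, 1.72, 0.649 and 2.34 RPKM in WT SPMs. In WT lung macrophages, it was at 3.43, 3.0, 6.14, 3.61 and 2.36 RPKM. It ranged in ACKR2-/- samples from 2.33 to 3.80 RPKM in monocytes, 1.21 to 2.46 RPKM in SPMs and 0.877 to 3.24 RPKM in lung macrophages. The ranges overlapped, and all 6 comparisons of cell types missed the threshold (edgeR). In WT, its difference of SPMs from monocytes was -0.89 (log2, 95% interval -1.72 to -0.06, adjusted p = 0.078), and this became -1.40 (adjusted p = 0.0069) without WT replicate 1 of the SPMs, a sample with less of the peritoneal macrophage marker Timd4 than the other SPM samples (47.0 against 216 to 342 CPM). Without that sample, lung macrophages exceeded SPMs by 1.203 in WT (adjusted p = 0.010), a difference that was not called with it.

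**Figure D1:**
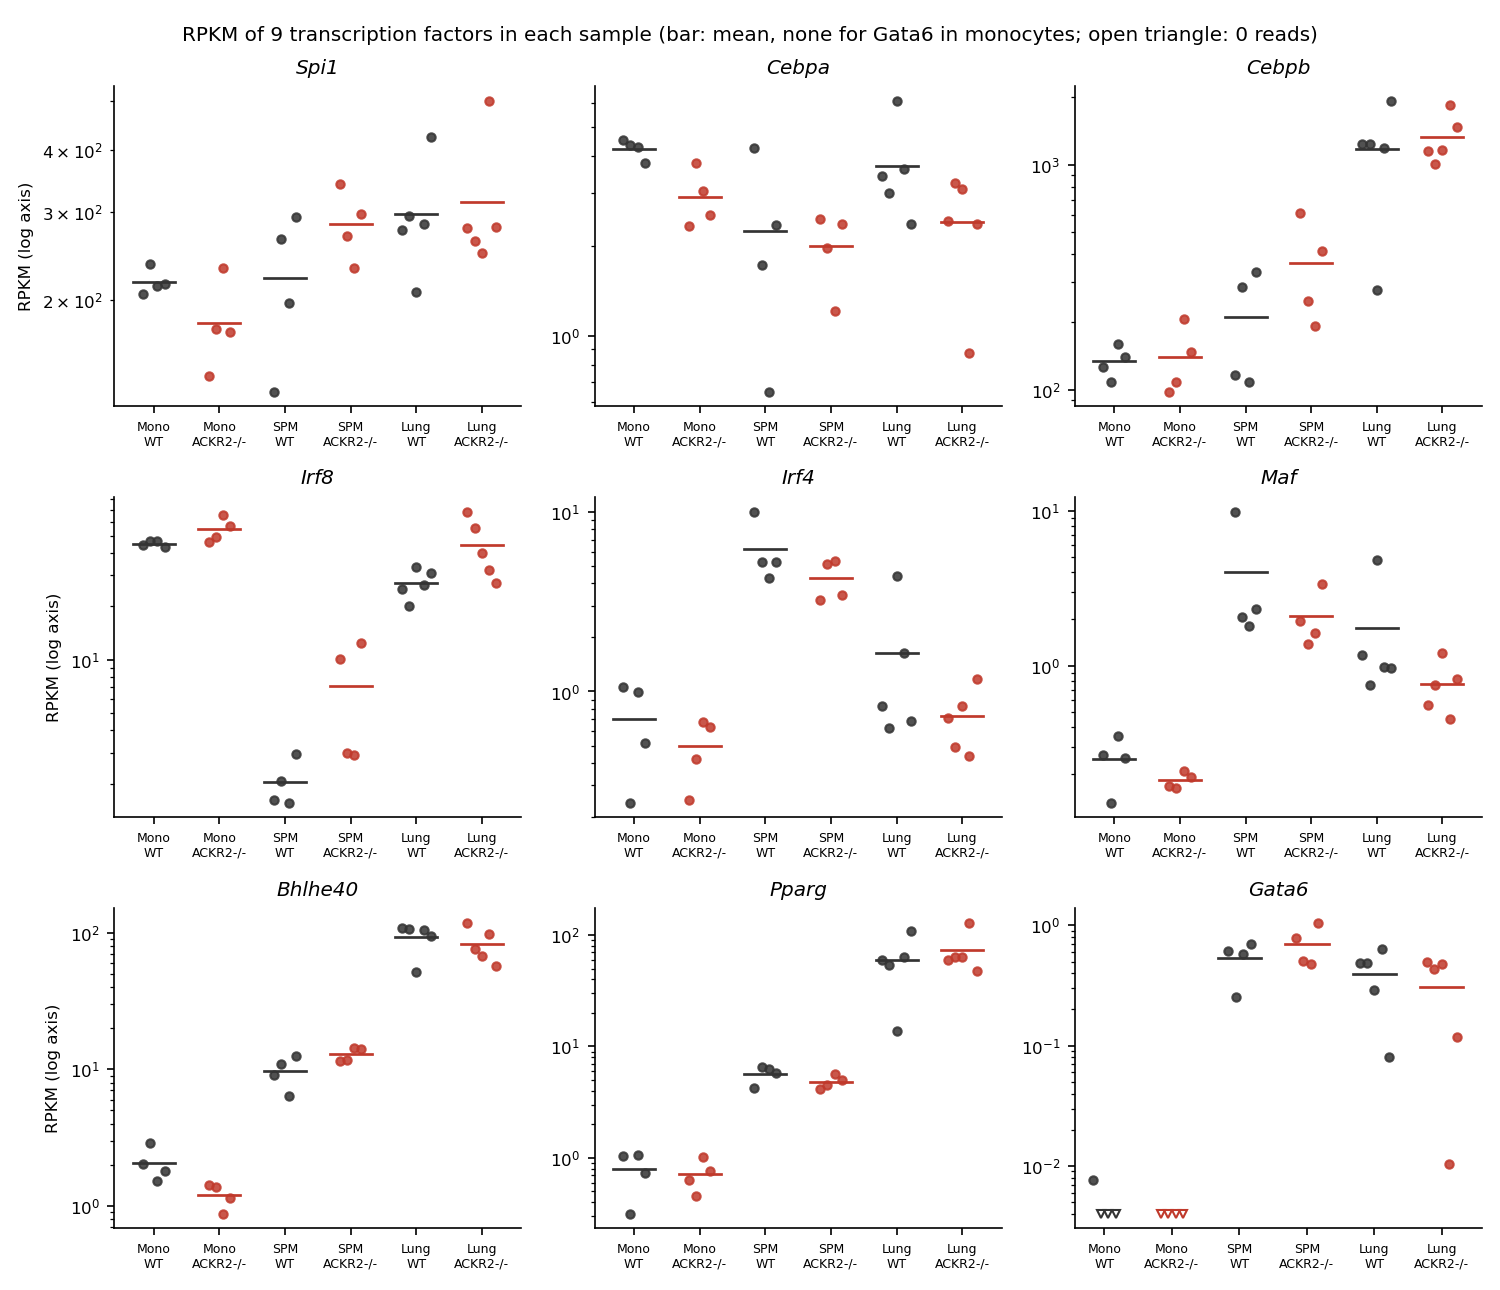
RPKM (log axis) of the 9 transcription factors in each of 26 samples, with WT in black, ACKR2-/- in red, bars at group means and open triangles for samples with 0 reads. Spi1 stayed between 131 and 502 RPKM throughout, Irf8 was low in SPMs, Irf4 and Maf were highest there, and Cebpb, Bhlhe40 and Pparg were highest in the lung, with WT replicate 3 standing low for each of these in its group.

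Next, the IRF partners of PU.1 were compared. Irf8 (ENSMUSG00000041515, chr8:120736358-120756694), which monocytes and dendritic cells need, was at 44.0, 46.4, 46.9 and 43.0 RPKM in WT monocytes. In WT SPMs, it was at 1.62, 2.06, 1.56 and 2.94 RPKM, and in WT lung macrophages at 25.2, 20.0, 33.3, 26.4 and 30.8 RPKM. The WT cell types did not overlap, and Irf8 ranked 22 of 962 transcription factor genes in monocytes, 52 in lung macrophages and 287 in SPMs. WT SPMs were lower than monocytes by 4.46 ± 0.41 (log2, SE, adjusted p = 2.8e-09 by edgeR), and WT lung macrophages were higher than SPMs by 3.72 ± 0.39 (adjusted p = 9.5e-09). The step from monocytes to lung macrophages of -0.73 (95% interval -1.42 to -0.05) missed the threshold (adjusted p = 0.056), and became -0.82 (adjusted p = 0.045) without WT replicate 3 of the lung. In ACKR2-/- samples it was -0.29 (95% interval -0.97 to 0.40), while SPMs were lower than monocytes by 2.93 on the log2 scale (adjusted p = 8.6e-07) and lung macrophages higher than SPMs by 2.65 ± 0.36 (adjusted p = 8.6e-07). These rested in size on ACKR2-/- replicates 1 and 4 of the SPMs, and without them the differences were -4.21 and 3.92.

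Irf4 (ENSMUSG00000021356, chr13:30749226-30766976) followed a different order. It was at 10.0, 5.25, 4.28 and 5.24 RPKM in WT SPMs, against 1.06, 0.24, 0.992 and 0.515 RPKM in WT monocytes. In WT lung macrophages, it was at 0.826, 0.625, 4.40, 1.65 and 0.684 RPKM, where the high value was again replicate 3. SPMs were higher than monocytes by 3.14 ± 0.56 (log2, SE, adjusted p = 5.2e-05 by edgeR), and lung macrophages were lower than SPMs by 1.93 on the log2 scale (SE 0.49, adjusted p = 0.0014), a difference that was -2.71 without lung WT replicate 3. WT lung macrophages exceeded monocytes by 1.22 ± 0.51 (adjusted p = 0.038), but by 0.43 (adjusted p = 0.38) without lung WT replicate 3, and the call was also lost without lung WT replicate 4 or monocyte WT replicate 2 or 4. In ACKR2-/- samples, Irf4 was at 0.247 to 0.677 RPKM in monocytes, 3.22 to 5.36 RPKM in SPMs and 0.437 to 1.18 RPKM in lung macrophages. SPMs stood apart from both, and the difference of lung macrophages from monocytes was 0.56 (95% interval -0.48 to 1.60, adjusted p = 0.35).

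Maf (ENSMUSG00000055435, chr8:115682942-115707794, minus strand) was likewise highest in SPMs. It was at 9.85, 2.04, 1.81 and 2.31 RPKM there in WT, at 0.267, 0.131, 0.353 and 0.253 RPKM in WT monocytes, and at 1.17, 0.755, 4.81, 0.98 and 0.971 RPKM in WT lung macrophages. SPM replicate 1 and lung replicate 3 stood above the rest of their groups. Maf was higher in WT SPMs than in monocytes by 3.99 ± 0.61 (log2, SE, adjusted p = 6.7e-06 by edgeR) and higher in WT lung macrophages than in monocytes by 2.79 ± 0.56 (adjusted p = 1.4e-04). Without SPM WT replicate 1 the former was 3.02, and without lung WT replicates 3 and 5 the latter was 1.94, both still called. The lower level in lung macrophages than in SPMs, -1.21 ± 0.50 in WT (adjusted p = 0.038), was lost in 6 of 17 alternatives. It was -0.24 (adjusted p = 0.66) without SPM WT replicate 1, and also missed the threshold without lung WT replicate 1, 2 or 4 or the library labelled lung WT replicate 5. Without lung WT replicates 3 and 5 together, it was -2.05 (adjusted p = 0.00088). In ACKR2-/- samples, at 1.39 to 3.37 RPKM in SPMs and 0.455 to 1.22 RPKM in lung macrophages, it was -1.46 ± 0.50 (adjusted p = 0.014), and -1.12 (adjusted p = 0.073) without SPM ACKR2-/- replicate 4.

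Bhlhe40 (ENSMUSG00000030103, chr6:108660629-108666925) rose from monocytes to SPMs and again to lung macrophages. It was at 2.03, 2.90, 1.504 and 1.79 RPKM in WT monocytes, at 9.09, 11.02, 6.41 and 12.6 RPKM in WT SPMs, and at 109.5, 108, 51.7, 105.5 and 96.0 RPKM in WT lung macrophages. The 3 cell types did not overlap. The steps were 2.25 ± 0.27 from monocytes to SPMs (log2, SE, adjusted p = 2.8e-07 by edgeR) and 3.27 ± 0.28 from SPMs to lung macrophages (adjusted p = 2.9e-10). In ACKR2-/- samples, at 0.871 to 1.42, 11.5 to 14.3 and 57.1 to 119.5 RPKM, they were 3.43 ± 0.29 (adjusted p = 7.7e-10) and 2.70 ± 0.27 (adjusted p = 4.8e-09), and all of these calls held in every alternative.

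Pparg (ENSMUSG00000000440, chr6:115360951-115490399), a nuclear receptor that responds to lipids, had the same order. It was at 1.05, 0.315, 1.06 and 0.735 RPKM in WT monocytes, at 4.28, 6.49, 6.21 and 5.84 RPKM in WT SPMs, and at 59.1, 53.5, 13.8, 63.6 and 108.5 RPKM in WT lung macrophages. Again the groups did not overlap, and lung replicate 3 was the lowest of its group. Pparg was higher in SPMs than in monocytes by 2.85 ± 0.44 (log2, SE, adjusted p = 9.4e-06 by edgeR) and higher in lung macrophages than in SPMs by 3.39 ± 0.43 (adjusted p = 2.1e-07). It was at 0.456 to 1.01 RPKM in monocytes, 4.18 to 5.67 RPKM in SPMs and 47.2 to 129 RPKM in lung macrophages of ACKR2-/- mice. The same steps were 2.75 ± 0.44 (adjusted p = 1.7e-05) and 3.91 ± 0.44 (adjusted p = 3.4e-08), and these calls held in every alternative. Siglecf, which marks alveolar macrophages and was part of the gate, was at 0.234 to 9.66 CPM in lung samples, and the 9 alveolar macrophage markers summed to 1321 to 2425 CPM there. They summed to 664 to 1657 CPM in SPMs, and to 5984 to 7346 CPM in WT and 3857 to 5298 CPM in ACKR2-/- monocytes. The part of alveolar macrophages in the Pparg level was not tested.

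Gata6 (ENSMUSG00000005836, chr18:11052064-11085635) was the lowest member. In monocytes, 1 read was counted over all 8 samples, and 3 reads would correspond to 0.019 to 0.023 RPKM in a sample. This bound uses a length of 6508 bases, and would be higher with the 3194 bases listed for monocytes. It was at 0.616, 0.256, 0.573 and 0.696 RPKM in WT SPMs, from 18 to 66 reads, and at 0.784, 0.501, 0.481 and 1.06 RPKM in ACKR2-/- SPMs. In WT lung macrophages, it was at 0.490, 0.485, 0.290, 0.634 and 0.0807 RPKM. Over all samples of a group, 160 reads were counted in WT SPMs, 389 in WT lung macrophages and 1 in WT monocytes, and 326, 338 and 0 in ACKR2-/-. The deposited tables list Gata6 with 3194 bases for monocytes and 5590 for SPMs, against 6508 in the annotation used for RPKM, and no length for the lung, whereas the lengths of the other 8 members are the same. Gata6 levels, differences and tests between cell types therefore carry a difference in gene model, and its fold over monocytes is not given in the text. Gata6 was tested in both macrophage types against monocytes and was called in each genotype (adjusted p = 8.5e-06 for WT SPMs and 7.3e-06 for WT lung macrophages by edgeR). Between lung macrophages and SPMs, its difference was -0.43 (log2, 95% interval -1.80 to 0.93, adjusted p = 0.59) in WT.

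In the lung, Gata6 was lowest in the samples with the least epithelial and mesothelial RNA. In ACKR2-/- lung samples, it was at 0.497, 0.431, 0.474, 0.0103 and 0.118 RPKM. The low samples, the library labelled WT replicate 5 and ACKR2-/- replicates 4 and 5, summed to 390.2, 239 and 4474 CPM over the 8 epithelial markers, and the other samples to 4795 to 15940 CPM. Over 6 mesothelial markers these low samples had 9.33, 3.32 and 33.4 CPM, and the others 45.3 to 112 CPM. Among the others, WT replicate 4 had the lowest epithelial sum, 4795 CPM, but the highest Gata6, 0.634 RPKM. The part of epithelial and mesothelial cells in the Gata6 reads was not tested. In SPMs, the mean of Gata6 was highest, although not called against the lung in either genotype. There, the mesothelial markers summed to 1.08 to 5.19 CPM in WT and 2.69 to 7.95 CPM in ACKR2-/- samples, with 1 of 6, Wt1, at 0, and their part was not tested. The large peritoneal macrophage markers Timd4 and Icam2 were at 47.0 to 342 and 157 to 1501 CPM there.

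Between WT SPMs and monocytes, 6 of 9 members were called (5 higher in SPMs, 1 lower) (a call needed adjusted p below 0.05 with a log2 change beyond 0.5 either way), where 41.9% of all 17792 genes tested were called. Among ACKR2-/- samples, 8 of 9 were called against 40.3% of all genes. Between lung macrophages and monocytes, 6 of 9 were called in WT and 6 of 9 in ACKR2-/-, all higher in the lung, against 63.8% and 62.0% of all genes. Between lung macrophages and SPMs, 6 of 9 were called in each genotype, 4 higher and 2 lower in the lung, against 62.3% in WT and 63.6% in ACKR2-/-. The shares of members called in the lung comparisons were therefore close to those of all genes. The median log2 difference of the members was 2.25 for SPMs over monocytes, 2.79 for lung macrophages over monocytes and 0.70 for lung macrophages over SPMs in WT, against 0.00, 0.34 and 0.41 over all genes. The order of the cell types by mean level was the same in both genotypes for all 9 members, although not every step passed the test.

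**Figure D2:**
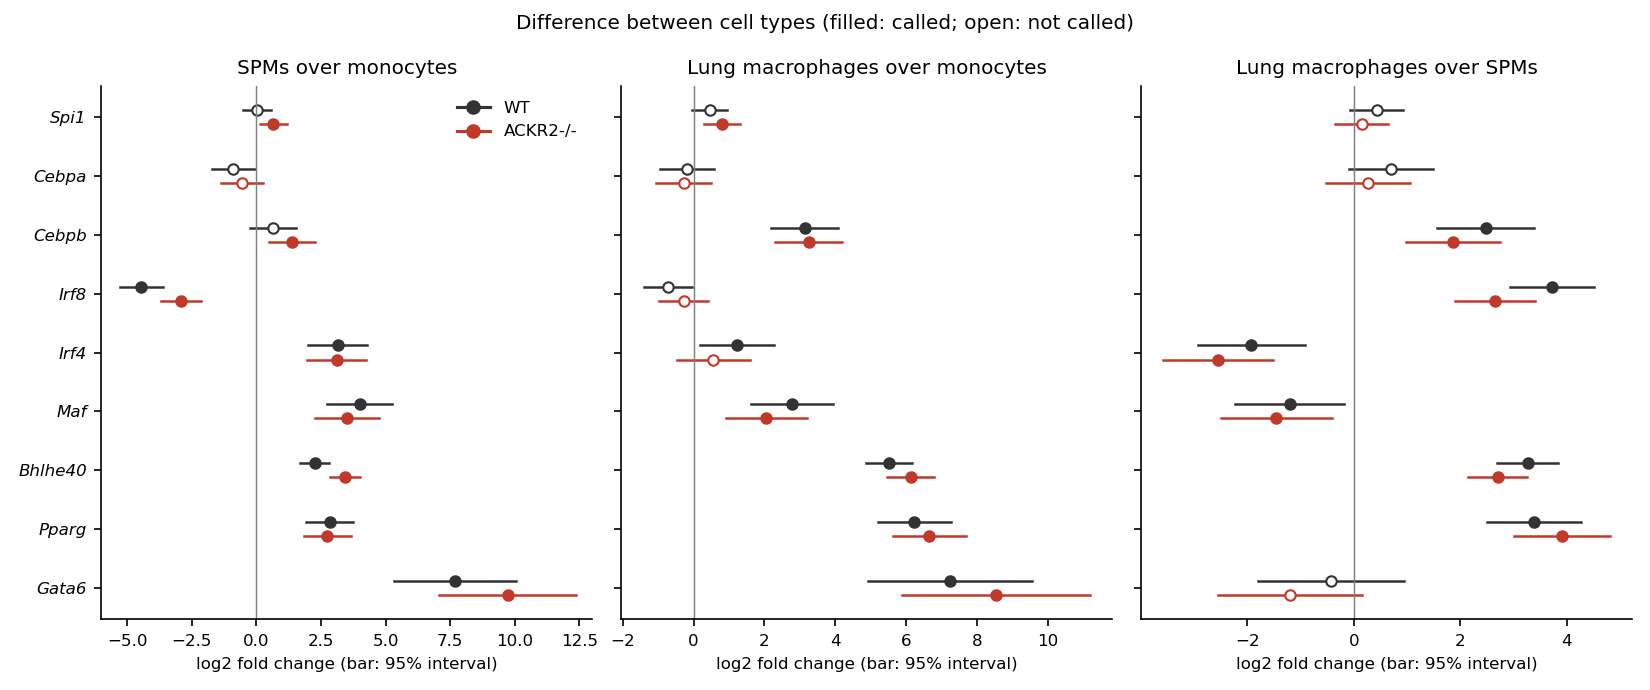
Log2 fold change of each member between cell types, with its 95% interval, in WT (black) and ACKR2-/- (red) samples, and filled points for called differences. Gata6 values carry a difference in gene model between the cell types. Irf8 lies at -4.46 in WT and -2.93 in ACKR2-/- for SPMs over monocytes, opposite to Irf4 at 3.14 and 3.11 (Irf8 in ACKR2-/- is at -4.21 without SPM replicates 1 and 4), and Pparg and Bhlhe40 lie above 5 for lung macrophages over monocytes.

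Pairs of related factors were then compared within each sample, as the log2 ratio of reads per kb with 0.5 reads added, which does not depend on the scaling of the libraries. In WT monocytes, the Irf8 to Irf4 ratio was 5.37, 7.57, 5.56 and 6.37 (log2), so Irf8 exceeded Irf4 in all samples. In WT SPMs, it was -2.63, -1.35, -1.45 and -0.83, and Irf4 exceeded Irf8 in all samples. In WT lung macrophages, it was 4.92, 4.99, 2.92, 4.001 and 5.48. Means were 6.22 ± 1.001, -1.56 ± 0.76 and 4.46 ± 1.02 (SD, n = 4, 4 and 5). SPMs differed from monocytes by -7.78 (exact permutation p = 0.029, the smallest that 4 samples against 4 can give, adjusted p = 0.048 over 9 tests) and lung macrophages from SPMs by 6.03 (exact permutation p = 0.016, adjusted p = 0.048).

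The Cebpb to Cebpa ratio rose from 4.96 ± 0.29 (log2, SD, n = 4) in WT monocytes to 8.14 ± 1.56 (n = 5) in WT lung macrophages, with no overlap (exact permutation p = 0.016, adjusted p = 0.048). WT SPMs lay between, at 4.76, 7.36, 7.32 and 7.14, and did not pass the test against either. The Maf to Bhlhe40 ratio was -3.06 ± 0.99 in WT monocytes, -1.64 ± 1.21 in WT SPMs and -6.10 ± 1.51 in WT lung macrophages (log2, SD, n = 4, 4 and 5). It was lower in lung macrophages than in SPMs by 4.46 on the log2 scale (exact permutation p = 0.016, adjusted p = 0.048), so Bhlhe40 exceeded Maf most in the lung. In all, 6 of these 9 ratio tests passed. With 1 of the 13 WT samples left out, the count was 6 without lung replicate 3 and 0 without any of the other 12. Fewer samples also raise the smallest exact p that can be reached, so these counts cannot tell weaker differences from fewer samples. Without lung replicate 3, Cebpb to Cebpa between lung macrophages and SPMs passed, while Irf8 to Irf4 between lung macrophages and monocytes no longer did. The differences kept their sign, and ranged over these omissions from -8.06 to -7.33 for Irf8 to Irf4 between SPMs and monocytes and from -5.13 to -3.87 for Maf to Bhlhe40 between lung macrophages and SPMs.

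**Figure D3:**
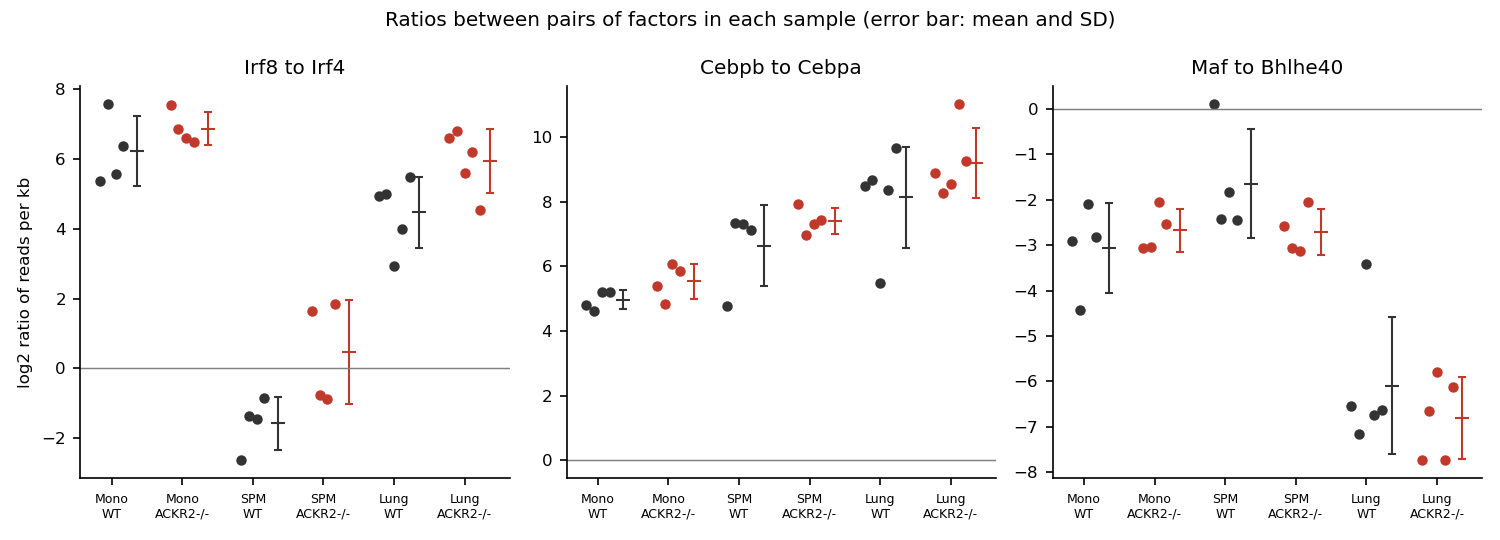
Log2 ratio of reads per kb between pairs of factors in each sample, with the mean and SD of each group beside its points, WT in black and ACKR2-/- in red. The Irf8 to Irf4 ratio is below 0 in the 4 WT SPM samples and in 2 of 4 ACKR2-/- SPM samples, and above 2.9 in all monocyte and lung samples.

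The 2 genotypes were compared next within each cell type. None of 26 member tests of genotype was called by edgeR, namely 0 of 8 in monocytes, where 1.27% of 13246 genes were called, 0 of 9 in SPMs (0.0462% of 12997 genes) and 0 of 9 in lung macrophages (0.0% of 16824 genes, with 499 at an unadjusted p under 0.05 and 21 called by DESeq2). An unadjusted p under 0.05 was found for 2 members in monocytes, 1 in SPMs and 2 in lung macrophages. Over all genes tested, it was found for 2251 in monocytes, 709 in SPMs and 499 in lung macrophages. DESeq2 also called 0 members in each. The median log2 difference of the members was -0.35 in monocytes, 0.32 in SPMs and -0.19 in lung macrophages, against 0.00, -0.05 and -0.04 over all genes. The unadjusted 95% interval lay on 1 side of 0 for Bhlhe40 (-1.26 to -0.25) and Cebpa (-0.88 to -0.15) in monocytes, Irf8 in SPMs (0.70 to 2.79), and Irf8 (0.15 to 1.24) and Maf (-2.39 to -0.01) in the lung.

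In monocytes, the largest difference was in Bhlhe40, at 2.03, 2.90, 1.504 and 1.79 RPKM in WT and 1.42, 1.36, 0.871 and 1.13 RPKM in ACKR2-/-. These did not overlap, with a log2 difference of -0.76 ± 0.23 (SE, exact permutation p = 0.029, adjusted p = 0.14 by edgeR). Cebpa was lower in ACKR2-/- monocytes, at 2.33, 3.80, 3.05 and 2.54 RPKM against 3.78 to 4.54 RPKM in WT, with -0.52 ± 0.17 (exact permutation p = 0.057, adjusted p = 0.15 by edgeR). Irf8 was at 46.3, 48.9, 65.0 and 57.0 RPKM in ACKR2-/- monocytes, against 43.0 to 46.9 RPKM in WT, with 0.29 ± 0.14 (adjusted p = 0.30). The remaining members had differences between -0.49 (Irf4) and 0.09 (Cebpb). T cell markers summed to 51.6 to 88.9 CPM in ACKR2-/- monocytes and 3.08 to 4.03 CPM in WT, and plasmacytoid dendritic cell markers to 23.1 to 92.4 CPM against 5.90 to 7.31 CPM. Neutrophil markers went the other way, although with overlap, at 9859 to 44970 CPM in ACKR2-/- and 30390 to 71350 CPM in WT. Myeloid progenitor markers summed to 8101 to 21050 CPM against 12730 to 25120 CPM. Bhlhe40 was highest in WT replicate 2 and lowest in ACKR2-/- replicate 3, the samples with the most and the least neutrophil RNA. The samples between did not follow that order. ACKR2-/- replicates 1 and 2 held 40340 and 44970 CPM of neutrophil markers, with Bhlhe40 at 1.42 and 1.36 RPKM. WT replicates 1 and 3 held less, 34340 and 30390 CPM, but had more Bhlhe40, at 2.03 and 1.504 RPKM. The part of these cells in these differences was not tested.

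In SPMs, Irf8 stood out. It was at 10.1, 2.99, 2.92 and 12.4 RPKM in ACKR2-/- samples and at 1.56 to 2.94 RPKM in WT samples, so that replicates 1 and 4 were high and replicates 2 and 3 lay at or beside the WT range. The difference of 1.74 ± 0.47 (log2, SE) did not pass (adjusted p = 0.79 by edgeR, 0.081 by DESeq2), and an exact permutation test gave p = 0.057. With no filter on low counts it passed (adjusted p = 0.043). In the fit of all 26 samples the difference was 1.79 (adjusted p = 0.071), and without ACKR2-/- replicates 1 and 4, which was chosen after the values were seen, it was 0.47 (adjusted p = 1.00). These 2 samples also held 684 and 1307 CPM of the monocyte marker Ly6c2, against 27.0 to 101.5 CPM in the other SPM samples. The 7 genes of the monocyte list, Ly6c2 among them, summed to 182300 and 163600 CPM in them and 113200 to 217700 CPM in the others, and the 10 large peritoneal macrophage markers to 3381 and 4060 CPM against 668 to 2598 CPM. They held 371 and 575 CPM of the scavenger receptor gene Marco (9.40 to 58.7 CPM in the others) and 41470 and 35190 CPM of Retnla (66720 to 137900 CPM). The 9 alveolar macrophage markers, Marco among them, summed to 1324 and 1187 CPM against 664 to 1657 CPM in the others. The 8 SPM markers, Retnla among them, summed to 161800 and 130500 CPM against 151000 to 250900 CPM. The part of these in the Irf8 level was not tested.

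Other members differed less in SPMs. Cebpb was at 191 to 608 RPKM in ACKR2-/- and 108 to 332 RPKM in WT (log2 difference 0.76, 95% interval -0.20 to 1.72), and its highest samples were again ACKR2-/- replicates 1 and 4. Irf4 was at 3.22, 5.10, 5.36 and 3.44 RPKM in ACKR2-/-, lowest in those replicates (difference -0.63, -1.35 to 0.08). Maf was at 1.93, 1.39, 1.63 and 3.37 RPKM in ACKR2-/-, with a difference of -1.07 (-2.34 to 0.19) that rested on WT replicate 1. Spi1, Gata6, Bhlhe40, Cebpa and Pparg had differences between -0.30 and 0.34 (edgeR, adjusted p = 0.79 or more for each).

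In lung macrophages, Irf8 was at 68.3, 55.0, 40.0, 32.1 and 27.2 RPKM in ACKR2-/- samples and at 20.0 to 33.3 RPKM in WT. Replicates 1 to 3 lay above all WT samples and replicates 4 and 5 within their range (log2 difference 0.69 ± 0.25, SE, exact permutation p = 0.048, adjusted p = 1.00 by edgeR). The natural killer cell gene Ncr1 was at 80.3, 75.9 and 36.6 CPM in those 3 samples and at 6.78 to 18.9 CPM in the other lung samples, and the 7 natural killer cell markers summed to 784 to 2091 CPM against 157 to 685 CPM. Their part in the Irf8 level was not tested. Irf4 differed by -1.18 ± 0.59 and Maf by -1.20 ± 0.54 (log2, SE), each with adjusted p = 1.00. Without lung WT replicates 3 and 5 these became -0.47 and -0.29. The other 6 members had differences between -0.63 (Cebpa) and 0.27 (Pparg).

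**Figure D4:**
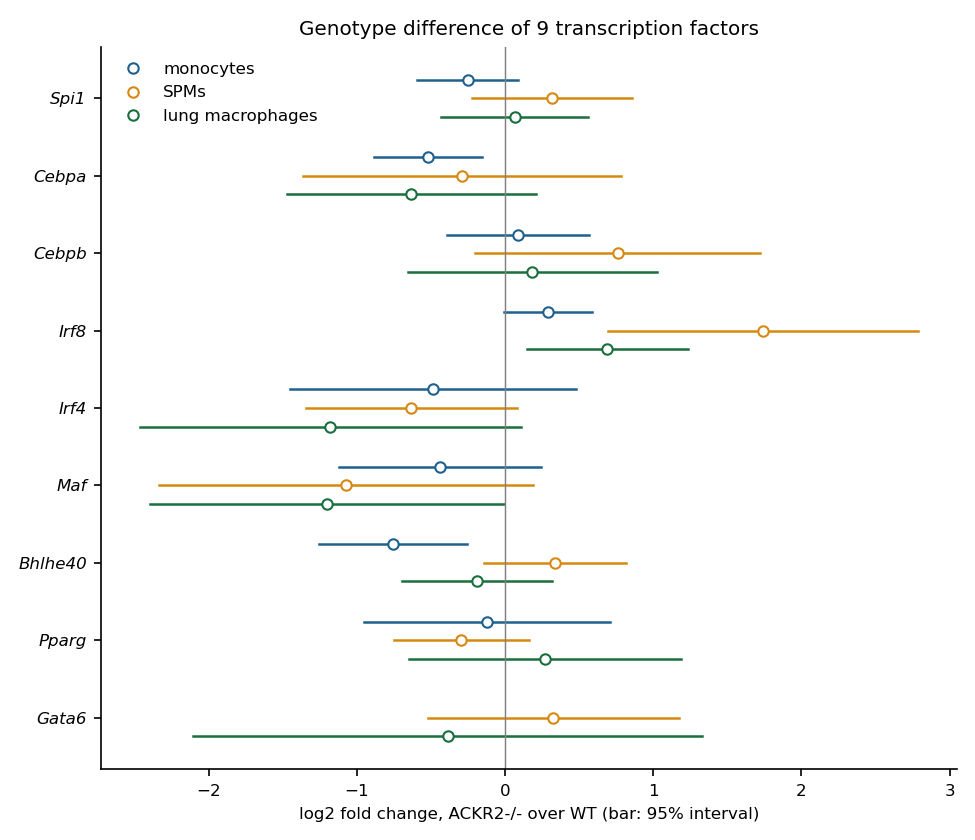
Log2 fold change of each member in ACKR2-/- over WT samples with its 95% interval, in monocytes (blue), SPMs (orange) and lung macrophages (green), where open points mark that no difference was called. Irf8 lies above 0 in all 3 cell types (0.29, 1.74 and 0.69). Maf (-0.44, -1.07 and -1.20), Irf4 (-0.49, -0.63 and -1.18) and Cebpa (-0.52, -0.29 and -0.63) lie below 0, none of them called. The difference of Irf8 in SPMs was smaller without ACKR2-/- replicates 1 and 4, and that of Maf without SPM WT replicate 1 or lung WT replicates 3 and 5. Gata6 was not tested in monocytes.

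**Figure D5:**
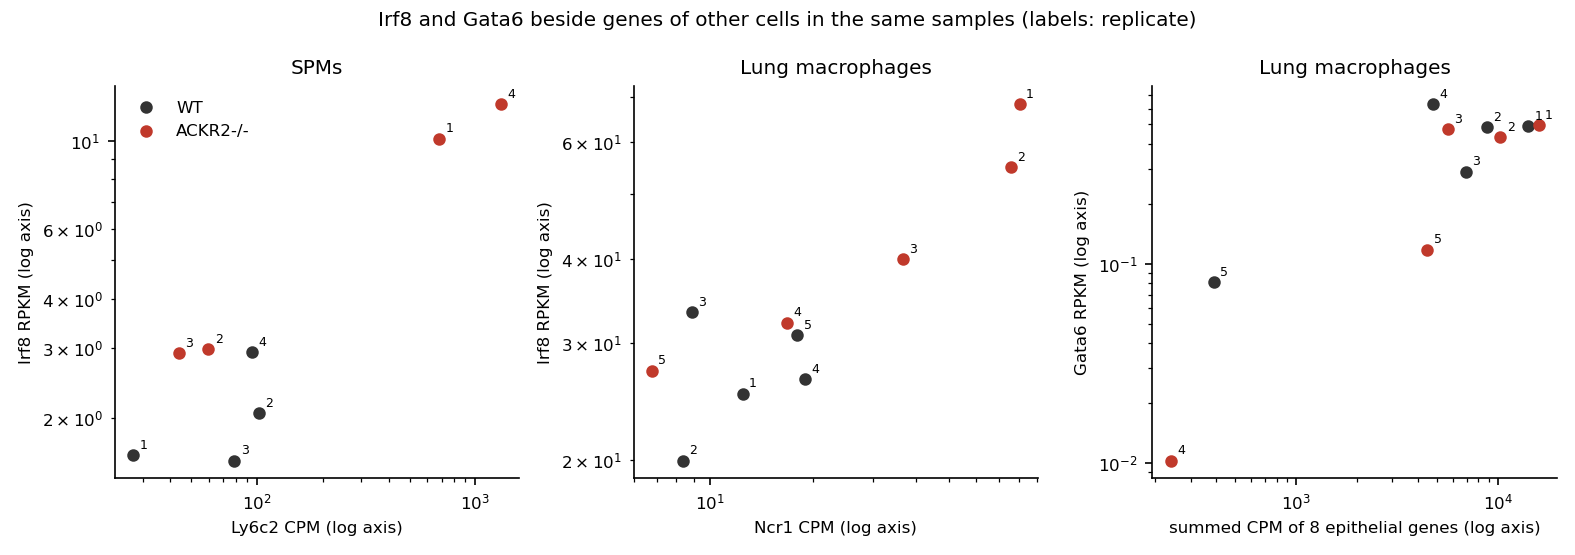
Irf8 RPKM beside Ly6c2 CPM in the 8 SPM samples (left), Irf8 RPKM beside Ncr1 CPM in the 10 lung samples (middle), and Gata6 RPKM beside the summed CPM of 8 epithelial markers in the lung samples (right), all on log axes with replicate numbers. The SPM samples with Irf8 at 10.1 and 12.4 RPKM are those with 684 and 1307 CPM of Ly6c2, and the lung samples with the least epithelial RNA have Gata6 at 0.0103 and 0.0807 RPKM.

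Whether the effect of genotype differed between cell types was tested by the interaction in the fit of all samples. None of 9 members was called between SPMs and monocytes (0.253% of all genes were called), between lung macrophages and monocytes (0.152%) or between lung macrophages and SPMs (0.0393%). The smallest adjusted p of a member was 0.33, 0.88 and 0.79 (edgeR). An unadjusted p under 0.05 was found for 2, 0 and 1 members, and for 1328, 1080 and 1095 of all 17792 genes. Ratios of pairs did not pass between genotypes either, in 0 of 9 exact permutation tests after adjustment. The Irf8 to Irf4 ratio in SPMs was 1.65, -0.77, -0.87 and 1.84 (log2) in ACKR2-/- samples, a difference of 2.03 from WT (exact permutation p = 0.057, adjusted p = 0.26). In lung macrophages it differed by 1.47 (exact permutation p = 0.048, adjusted p = 0.26).

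Related factors were examined as 8 lists with 91 genes. By genotype, 2 of 77 tested in monocytes were called, 0 of 82 in SPMs and 0 of 86 in lung macrophages (edgeR). Over all genes, 1.27% of 13246 were called in monocytes, 0.0462% of 12997 in SPMs and 0.0% of 16824 in lung macrophages. Fli1, an ETS factor of blood and endothelial cells, fell from 15.6 ± 1.7 to 9.75 ± 0.56 RPKM (SD, n = 4) in ACKR2-/- monocytes (adjusted p = 0.016). Id3, an inhibitor of bHLH factors, rose from 0.546 ± 0.242 to 1.70 ± 0.12 RPKM (adjusted p = 0.028). T cell and plasmacytoid dendritic cell markers were also higher in ACKR2-/- monocytes, and the part of such cells in Fli1 and Id3 was not tested. Among WT cell types, 28 of 88 were higher and 24 lower in SPMs than in monocytes, and 58 were higher and 6 lower in lung macrophages than in monocytes. Between lung macrophages and SPMs, 53 were higher and 7 lower in the lung. Of all 17792 genes, 3877 were higher and 3569 lower in SPMs than in monocytes (41.9% called), 7020 and 4338 in lung macrophages than in monocytes (63.8%), and 6956 and 4126 in lung macrophages than in SPMs (62.3%), and the lists are to be read against these shares.

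By list, all in WT lung macrophages over monocytes, 7 of 10 ETS factors, 4 of 7 IRF relatives, 3 of 4 MAF factors, 8 of 12 nuclear receptors and 25 of 36 other myeloid regulators were higher. Over all 17792 genes, 7020 were higher and 4338 lower in the same comparison. Of the C/EBP relatives 2 of 5 were higher and 1 lower, and of the bHLH relatives 6 of 10 were higher and 1 lower. The nuclear receptor Nr4a1, an immediate early gene that nonclassical monocytes need, was at 766 ± 276 RPKM in WT lung macrophages, 6.503 ± 2.46 in monocytes and 1.32 ± 0.55 in SPMs (SD, n = 5, 4 and 4), a log2 difference of 9.15 between lung macrophages and SPMs (adjusted p = 1.9e-13 by edgeR). Its relative Nr4a3 was 4.76 higher in the lung than in SPMs. Egr1, another immediate early gene, was 4.33 higher there (adjusted p = 1.4e-05), and Egr2 had 0 RPKM in WT monocytes, 5.31 ± 3.04 in SPMs and 9.70 ± 7.70 in lung macrophages. Spic, an ETS factor of red pulp macrophages, was at 14.9 ± 7.8 RPKM in WT lung macrophages against 0.0632 ± 0.0298 in SPMs, and Ets2 was 4.52 higher (log2) in the lung. Cebpe, which granulocyte precursors use, was at 75.8 ± 30.4 RPKM in WT monocytes and 0.148 ± 0.158 in lung macrophages, beside 30390 to 71350 CPM of neutrophil markers in WT monocytes and 2.10 to 65.6 CPM in WT lung macrophages. Ddit3, a stress response factor, rose by 1.16 from monocytes to SPMs. Maff, a small MAF factor, was 4.26 higher (log2) in the lung than in SPMs. Hes1, a target of Notch, was 5.25 higher (log2) in the lung than in SPMs (adjusted p = 2.5e-10), and Hey1 was at 2.24 ± 1.58 RPKM in the lung. Irf1, which responds to interferon, was 2.13 higher in the lung than in SPMs. Of the GATA factors, Gata3 was at 0.00629 ± 0.0126 RPKM in WT monocytes, 0.293 ± 0.176 in SPMs and 0.727 ± 0.352 in lung macrophages, and Gata5 was at 0.951 ± 0.607 RPKM in WT lung macrophages and 0.00 in WT monocytes.

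The genes most like each member were sought after the mean of each of the 6 groups was taken off, among 9571 genes over 26 samples, so that only variation between replicates counted. These samples share libraries, depth and cell content, so the correlations are descriptions. Pparg was most like Nxpe4 (Pearson's r = 0.95, Spearman's rho = 0.90), Gsap and Samsn1. Spi1 was most like the cytokine subunit gene Ebi3 (r = 0.93, rho = 0.90), Limd2 and Vill, and Cebpb was most like Slc2a6 (r = 0.89, rho = 0.85), Cdc42ep2 and Ifitm2. Irf4 was most like the chemokine receptor gene Ccr2 (r = 0.82, rho = 0.75), Plekho1 and Btla. Irf8 was most like AW112010 (r = 0.84, rho = 0.73), the interferon-inducible GTPase gene Igtp (r = 0.82, rho = 0.75) and Aoah. Maf was most like Rab11fip5 (r = 0.87, rho = 0.66), Fam102b and Gna13, Cebpa most like Sh3pxd2b (r = 0.85, rho = 0.62), Ppp1r16a and Sphk2, and Bhlhe40 most like Palm (r = 0.82, rho = 0.78) and Elovl5. Gata6 was not included, since its mean was below 1 RPKM in every group.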

How the data were processed

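RNA was amplified from poly-A RNA of sorted cells by the SMARTer method and sequenced as paired-end reads. Tables deposited by the authors, 1 for each of 3 cell types, hold unnormalised counts for every gene. The submitters' processing notes name HISAT2 2.0.5, featureCounts 1.5.0-p3, DESeq2 and mm10, without saying which step each made, and the lung table ends in 5 summary lines that were left out (56.3% of its counts). Counts were analysed in R 4.3.3 with the quasi-likelihood test of edgeR 4.0.16, after filterByExpr (minimum count 10, minimum total 15) and TMM scaling, with Benjamini-Hochberg adjustment over all tested genes. Genotypes were compared within each table, and cell types and interactions in a single fit of the 26 samples over shared identifiers. RPKM used exon lengths of GENCODE M21 and the scaling of that fit. Ratios were tested by exact two-sided permutation with adjustment over 9 tests, and unadjusted exact p values of the same kind are given for single members by genotype. Steps were tested on simulated data first. Total counts were 15450670 to 19218213 per monocyte sample, 12781144 to 35400034 per SPM sample and 19950019 to 29770252 per lung sample, and counting intervals cover counting error only, since PCR copies of a read cannot be told apart. No replicates were identical or as close as sampling allows (chi-square over its degrees of freedom 10.8 or more), and 0 columns were left unmapped. Lung samples are not stated to be from separate mice, so their p-values measure only the spread between samples.

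The members and all lists were chosen with earlier results of these data known. Besides the members, the text names relatives called by genotype or with the 2 largest absolute fold changes between WT cell types in each list, the 3 genes most correlated with each member above 1 RPKM, markers and Ackr2, and some genes that this rule names are not reported here. The alternatives tried were a robust fit, RLE scaling, DESeq2 1.42.0, filters at 1 CPM or absent, the replicate number as a block, single samples or groups of samples left out, the adjusted p alone and, for ratios, 5 reads added.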

Additional observations from a re-analysis of the deposited data

Results flagged for a closer look

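In 7 cases a member's level in 1 sample stood far from the others of its group, by Dixon's test at the 95% level over 52 groups of 4 or 5 samples. Chance alone flags about 1 in 20 groups. In the lung, WT replicate 3 had Irf4 at 4.40 RPKM against 0.625 to 1.65 in the other 4 samples, Maf at 4.81 RPKM against 0.755 to 1.17, and Bhlhe40 at 51.7 RPKM against 96.0 to 109.5. The same sample held 72110 CPM of MHC class II genes. ACKR2-/- replicate 4 of the lung had Spi1 at 502 RPKM against 249 to 280.3, and Pparg at 129 RPKM against 47.2 to 63.9, and was the sample with the least epithelial RNA. In SPMs, WT replicate 1 had Irf4 at 10.0 RPKM against 4.28 to 5.25, and Maf at 9.85 RPKM against 1.81 to 2.31. It also had the most Ccr2, at 2920 CPM against 632 to 1360 CPM in the other SPM samples.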

How the results depend on the processing

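Counts of called members were within 1.5 times the reported value in every alternative run, apart from SPMs by genotype, where 1 member (Irf8) was called with no filter on low counts instead of 0, and from the ratios between WT cell types, where 0 to 6 of 9 passed with a sample left out, although each difference kept its sign. With the replicate number as a block, 0 members were called by genotype in monocytes, SPMs and lung macrophages. Same-numbered samples deviated together only in part (correlations from -0.10 to 0.31 in monocytes, -0.09 to 0.02 in SPMs and -0.08 to 0.66 in the lung), and as not every pair did, the numbers were not taken to pair the samples.

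Of 1668 single values under alternatives, 1539 kept direction and side of the threshold, 99 lost it, 8 gained it and 22 changed sign, all of the last among differences that were not called. Without the filter and with the block, Spi1 between WT SPMs and monocytes became -0.037 and -0.0098 (log2). Without lung WT replicates 3 and 5, Gata6 between WT lung macrophages and SPMs became 0.0064. Without SPM ACKR2-/- replicates 1 and 4, Gata6 by genotype in SPMs became -0.20, and with WT replicate 1 left out as well it became -0.078, Spi1 -0.037, Irf4 0.055 and Cebpb -0.17. Both of these omissions were chosen after seeing the data. With single samples left out, the genotype difference ranged from -0.57 to 0.27 for Cebpa in SPMs, -0.042 to 0.46 for Cebpb, -0.0027 to 0.63 for Pparg and -0.13 to 0.25 for Spi1 in the lung, -0.14 to 0.22 for Cebpb and -0.38 to 0.058 for Pparg in monocytes, and -0.073 to 0.71 for the Maf to Bhlhe40 ratio in monocytes. Spi1 ranged from -0.15 to 0.20 between WT SPMs and monocytes and from -0.042 to 0.25 between ACKR2-/- lung macrophages and SPMs. The cause was not tested. Over all genes, calls by genotype rose from 168 to 540 (DESeq2) and 346 (no filter) in monocytes, from 6 to 30 and 52 in SPMs, and from 0 to 21 (DESeq2) in the lung, and were 13 in SPMs without those 3 samples. A count of 0 for Gata6 in a monocyte sample allows up to 0.019 to 0.023 RPKM at 6508 bases, and more at the 3194 bases listed for monocytes. The number of samples limits the exact tests, whose smallest p is 0.029 for 4 against 4.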
